A study of Mus musculus with 6 samples.

Results

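The 41 genes described here carry the first steps of protein secretion. They comprise 5 proteins of the signal recognition particle, 10 of the translocon and its partners, 5 of the signal peptidase, 12 of the COPII coat, 7 of the COPI coat and 2 p24 cargo receptors. They were found by gene symbol in the platform annotation. Each of the 41 had 1 probe set, among 22206 gene probe sets in all. Islet RNA of 3 Wt samples (labelled Control) was compared with that of 3 Pax8 +/- samples on Clariom S arrays, 1 array per sample. Pax8 +/- mice carry 1 disrupted copy, in the whole body, of Pax8, a transcription factor of the thyroid, and serve as a model of mild hypothyroidism. The mice were male, of a C57BL/6 background and 9 months old when killed. The methods of the study state that mice of that age were fasted before killing. Whether islets of several mice were pooled for an array is not stated in the labels. The p-values therefore rest on the spread among these 6 arrays, part of which may be technical.

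Beta cells make large amounts of proinsulin, and every molecule of it passes through this machinery. The signal recognition particle binds the signal peptide as it leaves the ribosome and brings it to the membrane of the endoplasmic reticulum (ER). There the SEC61 channel admits the growing chain, helped by the TRAP complex, and the signal peptidase cuts the signal peptide off. COPII vesicles then carry the folded protein from the ER to the Golgi, and COPI vesicles bring receptors and escaped ER proteins back. The unfolded protein response, through the factors XBP1 and ATF6, is known to raise many genes of this pathway when the ER is loaded.

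Among 33 members with a promoter window in the RefSeq table (build GRCm38.p6, from 250 bases before to 50 after the start), 5 held the unfolded protein response element TGACGTGG on either strand. These were Sec23a, Sec24d and Sec16b of the COPII coat and Copb1 and Copb2 of the COPI coat. Over all genes of the table, 193 of 27025 (0.714%) held it in a window of the same length. In these 5 members the first base of the match lay between -44 (Sec16b) and 6 (Sec23a) relative to the start. The 5 stretches of 80 bases that hold the matches are shown. They are written 5′ to 3′ on the strand of the gene, and the capitals mark the element or its reverse complement.

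Sec16b, chr1:157506716-157506795, plus strand: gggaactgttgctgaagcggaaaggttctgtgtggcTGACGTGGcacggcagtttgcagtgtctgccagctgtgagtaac
Sec24d, chr3:123267434-123267513, plus strand: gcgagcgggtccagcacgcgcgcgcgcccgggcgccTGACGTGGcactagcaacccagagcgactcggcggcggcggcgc
Sec23a, chr12:59011968-59012047, minus strand: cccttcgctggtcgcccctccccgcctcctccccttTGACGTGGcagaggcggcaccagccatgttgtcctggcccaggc
Copb1, chr7:114254665-114254744, minus strand: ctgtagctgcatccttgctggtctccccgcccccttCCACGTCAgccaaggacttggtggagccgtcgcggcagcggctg
Copb2, chr9:98563688-98563767, plus strand: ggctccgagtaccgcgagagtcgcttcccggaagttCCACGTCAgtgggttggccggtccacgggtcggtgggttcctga

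In Sec16b, Sec24d and Sec23a the element ran in the direction of the gene, and in Copb1 and Copb2 against it. The form that ends in A, TGACGTGA, was in 0 of the 33 members and in 137 genes of the table (0.507%). The longer ER stress elements were searched on both strands too: ERSE, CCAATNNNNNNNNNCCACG, and ERSE-II, in which ATTGG and CCACG are separated by 1 base. They were likewise in 0 members, and in 37 (0.137%) and 12 (0.0444%) of the genes of the table. CCACG is also part of the reverse complement of TGACGTGG. A match is a run of letters and not a measured binding site. Arcn1, Sec11c, Sec61a1, Spcs3, Srp19, Srp68, Ssr2 and Tmed2 had no window in the table.

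The values are log2 levels per probe set, summarised by the authors with RMA, and levels of different genes are not comparable. Background was taken as the level that 95% of the negative control probe sets of an array fell below, which lay between 7.60 and 7.97. Of the 41 members, 33 were above it on all 6 arrays, 5 on some and 3 (Sec61b, Sec16a and Sec16b) on none, and the size of a difference is not exact where a level is at background. The scale ended at 19.88 to 19.93, and the highest member value was 16.78, so that no member was at the upper end. Pax8 itself was at background, with levels of 4.66, 5.05 and 4.74 in Wt and 4.59, 4.58 and 5.02 in Pax8 +/- islets, and gives no check of the labels. The hormone genes Ins2 and Gcg reached that upper end on every array, and 7 of 15 measured acinar markers were within 0.1 of it on every array.

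Differences are Pax8 +/- minus Wt in log2 units, from 1 limma fit over all 22206 gene probe sets. At the thresholds of the study, a fold change of at least 2.5 and an unadjusted p of at most 0.05, 1 member was higher and 0 were lower, where 0.648% and 0.351% of all probe sets passed. At an unadjusted p of at most 0.05 alone, 3 members (Wdr83os, Sec24a and Sec24b) were higher, against 3.14% of all probe sets, and 1 (Sec11c) was lower, against 2.77%. No member passed after adjustment over all probe sets (adjusted p = 0.745 from limma for each of these 4 genes, the smallest of any probe set). Across the 41 members the median difference was 0.15, with 30 higher and 11 lower in mean. Over all probe sets 10936 were higher in mean and 11270 lower, with a median of -0.01. The median was 0.02 over the 4812 probe sets above background on all arrays. The 95% interval of the difference lay within a 2.5-fold change in either direction for 29 of the 41 members and reached it for 12.

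**Figure D1:**
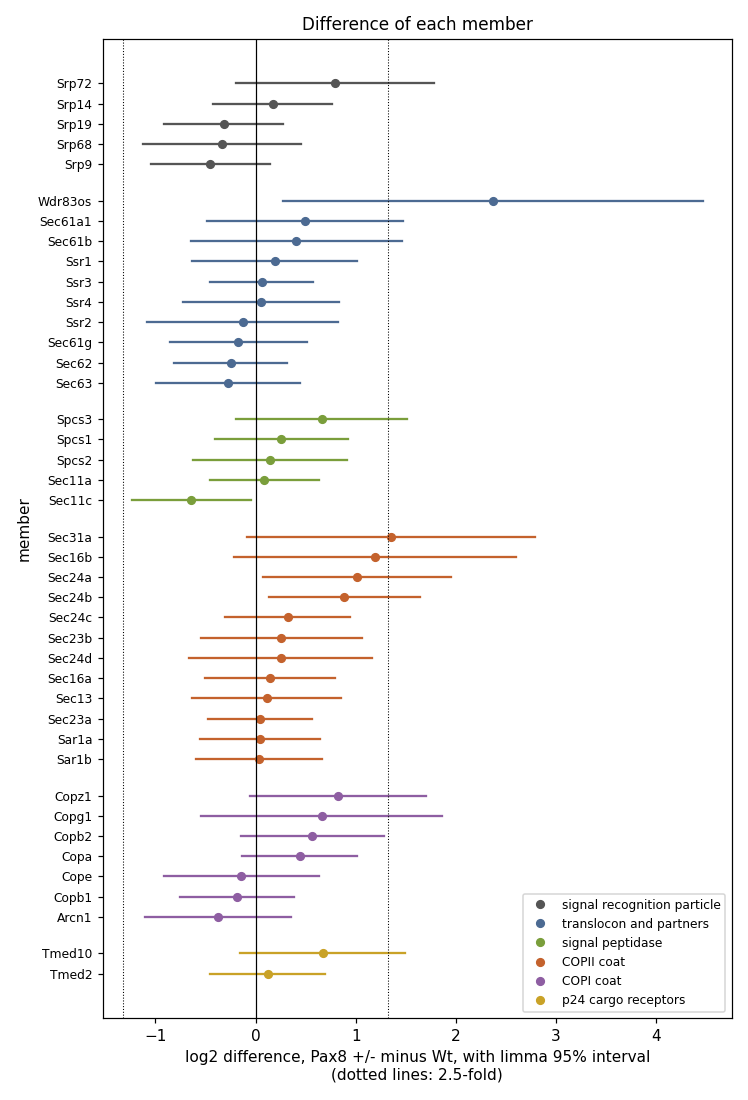
Log2 difference (Pax8 +/- minus Wt, x axis) of each member (y axis, coloured by role) with its limma 95% interval over 3 arrays per group; dotted lines mark a 2.5-fold change. Wdr83os at 2.37 stands apart from the rest, all 12 COPII genes lie to the right of 0, and most intervals cover 0.

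The arrays of a group differed among themselves. Levels on Pax8 +/- replicate 1 correlated at 0.981 to 0.984 with those on the Wt arrays. With Pax8 +/- replicates 2 and 3 they correlated at 0.967 and 0.963, and those 2 arrays correlated at 0.984 with each other. Wt replicate 3 correlated at 0.983 and 0.978 with Pax8 +/- replicates 2 and 3. Its correlations with Wt replicates 1 and 2 were 0.981 and 0.970. Wt replicates 1 and 2 correlated with Pax8 +/- replicates 2 and 3 at 0.948 to 0.966. Relative to the Wt mean, the median member stood at -0.06, -0.29 and 0.37 on Wt replicates 1, 2 and 3 and at 0.00, 0.28 and 0.19 on Pax8 +/- replicates 1, 2 and 3. Wt replicate 3 was the highest of the Wt arrays for 34 of the 41 members (82.9%), and Wt replicate 2 the lowest for 31 (75.6%). Among the 4812 probe sets above background on all arrays these shares were 51.3% and 45.4%. For 33 members (80.5%) the level of Pax8 +/- replicate 1 was between the lowest and highest Wt level, against 63.5% of those probe sets. The groups of 37 members overlapped, while 2 members were higher and 2 lower on every Pax8 +/- array than on any Wt array, against 4.52% and 5.14% of all probe sets. These were Sec24b and Copa on the higher side and Sec11c and Srp9 on the lower.

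**Figure D2:**
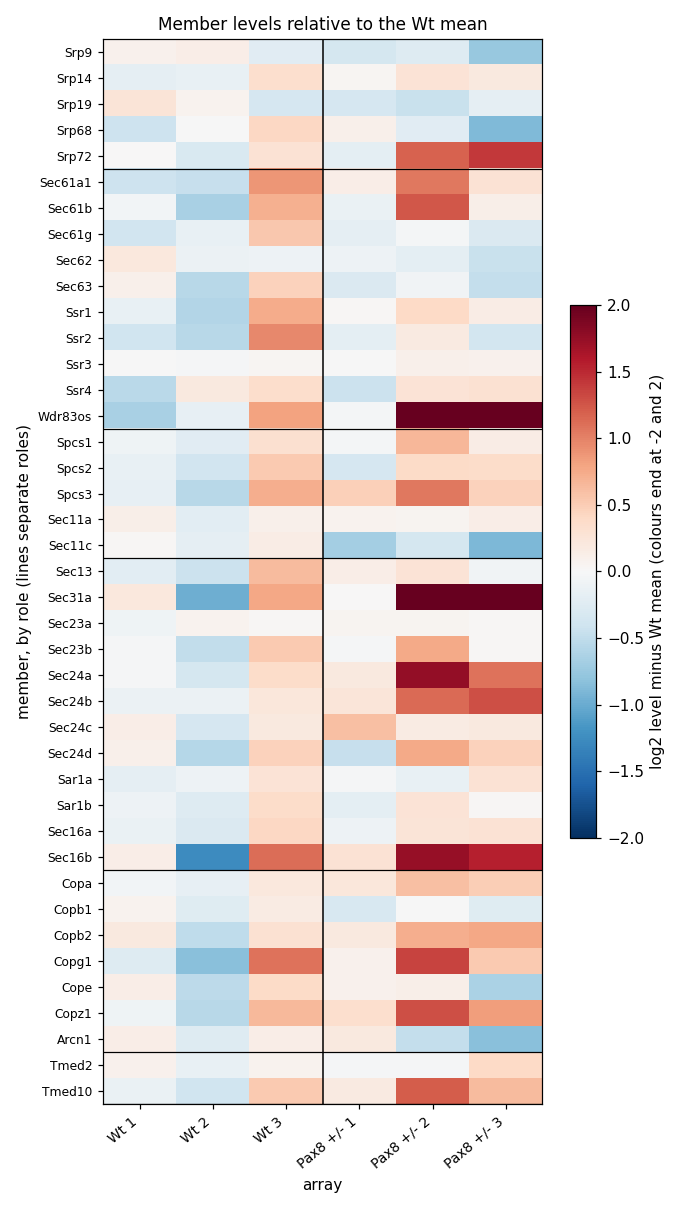
Log2 level minus the Wt mean (colour) of each of the 41 members (rows, by role) on each of the 6 arrays (columns). Wt replicate 2 is mostly blue and Wt replicate 3 mostly red, and the strongest red of Wdr83os and Sec31a is on Pax8 +/- replicates 2 and 3, with Pax8 +/- replicate 1 near the Wt mean.

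Markers of beta cells had their lowest mean level on Wt replicate 2 and their highest on Pax8 +/- replicates 2 and 3. Of 17 listed, 15 were measured and all 15 had a higher mean in Pax8 +/- islets (median difference 1.13), with 2 at the upper end of the scale. Their mean level was 12.42, 11.13 and 13.68 on the Wt arrays and 12.29, 14.60 and 14.59 on the Pax8 +/- arrays. Of 8 measured duct markers 7 had a lower mean, with mean levels of 12.49 to 13.26 in Wt and 11.48 to 13.29 in Pax8 +/- islets. Acinar markers had mean levels of 16.61 to 16.83 in Wt and 16.31 to 16.68 in Pax8 +/- islets, with 8 of 15 lower in mean. However, 7 of the 15 were within 0.1 of the upper end on every array, with differences of -0.02 to 0.02. Of the other acinar markers, all but Bhlha15 (0.75) were lower in mean, from -0.06 for Cela1 to -1.39 for Spink1. Among them, Ptf1a and Rbpjl were below background on every array. Delta markers were also lowest on Wt replicate 2, with means of 9.44 to 11.41 in Wt and 10.25 to 11.22 in Pax8 +/- islets. Of 4 delta markers 3 had a higher mean, as had 5 of 6 measured alpha markers. However, 2 of the delta and 3 of the alpha markers were below background on every array. Gcg was at the upper end on every array, and Sst on Pax8 +/- replicates 2 and 3. Of 8 endothelial markers 6 had a lower mean, as had 5 of 7 mesenchymal and 5 of 8 macrophage markers. In each of these last 2 lists 6 markers were below background on every array, as were 2 of the endothelial markers. All 7 measured lymphocyte and plasma cell markers were at background on every array. In bulk islet RNA, more cells of a type and more RNA per cell cannot be told apart, and the part of cell composition in the differences below was not tested.

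**Figure D3:**
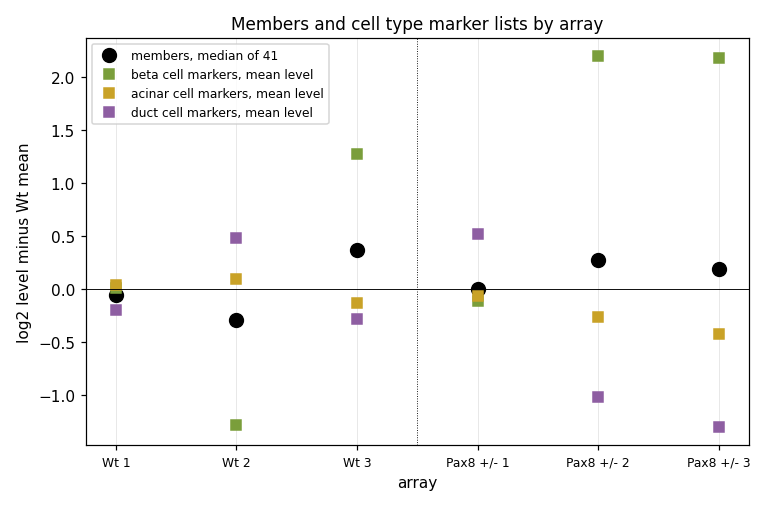
Log2 level minus the Wt mean (y axis) on each of the 6 arrays (x axis) for the median of the 41 members (black) and for the mean level of the measured beta (green), acinar (yellow) and duct (purple) cell markers. The members and the beta cell markers are lowest on Wt replicate 2 and higher on Wt replicate 3 and Pax8 +/- replicates 2 and 3, while the duct markers are lowest on Pax8 +/- replicates 2 and 3.

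In the signal recognition particle, 2 of the 5 members had a higher mean and 3 a lower one, and none passed the test. Srp72, which with its partner Srp68 forms the largest heterodimer of the particle, was at 14.10, 13.79 and 14.39 on the Wt arrays and at 13.89, 15.27 and 15.50 on the Pax8 +/- arrays. Pax8 +/- replicates 2 and 3 were thus above every Wt array and replicate 1 below the Wt mean. Its difference was 0.80 (standard error 0.43). Srp68 itself stood at 10.89 to 11.72 in Wt and 10.41 to 11.40 in Pax8 +/- islets, a difference of -0.34.

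Srp9, which with Srp14 forms the domain that pauses translation, was at 11.10, 11.14 and 10.78 on the Wt arrays and at 10.66, 10.74 and 10.26 on the Pax8 +/- arrays. Its groups were separate by 0.04, with a difference of -0.45 (standard error 0.26). Srp14 had a difference of 0.17 and was below background on Wt replicate 1. Srp19, which helps the particle to assemble, had a difference of -0.32 with overlapping groups.

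Of the channel subunits, Sec61a1, which forms the pore, was at 13.13, 13.08 and 14.42 in Wt and 13.67, 14.61 and 13.84 in Pax8 +/- islets, and the groups differed by 0.49 (standard error 0.43) with overlapping groups. Sec61g had a difference of -0.17. The probe set of Sec61b read between 5.37 and 7.27, below background on all 6 arrays, and its difference of 0.41 is not exact. Sec62 and Sec63, which assist the channel and, for Sec63, recruit the chaperone BiP, had differences of -0.25 and -0.28. Sec63 was the lowest of the 10 translocon genes, at 11.50, 10.83 and 11.85 in Wt and 11.10, 11.32 and 10.92 in Pax8 +/- islets, values that overlap throughout.

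The 4 subunits of the TRAP complex, Ssr1 to Ssr4, which help insulin and other proteins with weak signal peptides to enter the channel, differed little in mean, by 0.19, -0.13, 0.06 and 0.05. The interval of Ssr3 was the narrowest of these, from -0.46 to 0.58. Its 6 values lay between 13.46 and 13.58. The Ssr2 values spread from 15.27 to 16.78 in Wt alone, with Wt replicate 3 the highest.

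Wdr83os (Entrez Gene 414077) had the largest difference of the members and was the only one past the thresholds of the study. It encodes Asterix, a small ER membrane protein that, in human cells, binds CCDC47 and shields membrane segments during insertion. It was at 7.22, 7.70 and 8.68 on the Wt arrays and at 7.83, 11.54 and 11.34 on the Pax8 +/- arrays. Pax8 +/- replicates 2 and 3 were far above the other 4 arrays, and replicate 1 lay within the Wt range. The mean was 7.87 ± 0.74 (SD, n = 3) in Wt islets. In Pax8 +/- islets it was 10.24 ± 2.09 (SD, n = 3), which is 2.37 higher (standard error 0.91, adjusted p = 0.745 from limma), or 5.17-fold. The difference was 3.64 when each group was averaged by a Tukey biweight, which gave Pax8 +/- replicate 1 no weight. Wt replicates 1 and 2 were below background, so that this size is not exact. The study lists this gene among those it chose on the same samples, and its direction is no independent evidence. The call was lost when 1 of 4 arrays was left out: the difference was 2.05 without Wt replicate 1, 2.29 without Wt replicate 2, 1.72 without Pax8 +/- replicate 2 and 1.82 without Pax8 +/- replicate 3. It was also lost without moderation of the variance. Without Pax8 +/- replicate 1 the difference was 3.57 (adjusted p = 0.0405 from limma). Wdr83os was then the only member with an adjusted p under 0.05, where 0.131% of all probe sets passed. That fit leaves out the 1 Pax8 +/- array within the Wt range, and with it most of the spread of the group. The adjusted p holds only for that choice of arrays.

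The promoter window of Wdr83os, chr8:85080713-85081012, is shown as that of the member with the largest difference, and none of the motifs above was in it.

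Wdr83os, plus strand: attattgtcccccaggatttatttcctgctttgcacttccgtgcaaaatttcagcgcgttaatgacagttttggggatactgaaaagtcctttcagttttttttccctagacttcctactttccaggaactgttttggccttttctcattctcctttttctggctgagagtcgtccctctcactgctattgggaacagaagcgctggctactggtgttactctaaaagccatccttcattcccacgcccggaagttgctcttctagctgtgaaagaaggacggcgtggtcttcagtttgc

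Wdr83, the neighbouring gene, read between 5.54 and 6.51 on all arrays, below background, with a difference of 0.16 (standard error 0.34). Ccdc47 encodes the partner of the Wdr83os product. It was at 12.16, 12.04 and 12.28 in Wt and 11.83, 11.70 and 11.67 in Pax8 +/- islets, lower on every Pax8 +/- array, with a difference of -0.43 (standard error 0.23).

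**Figure D4:**
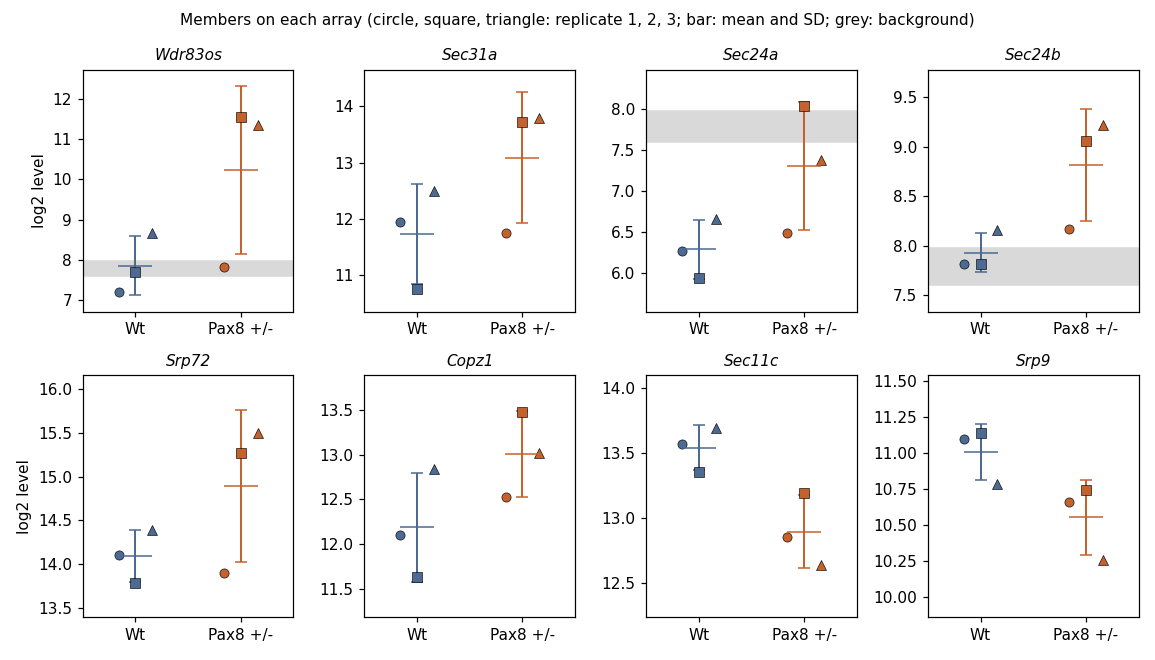
Log2 level (y axis, a separate range in each panel) of 8 members on the Wt (blue) and Pax8 +/- (orange) arrays; points are arrays, bars mean and SD of 3, and the grey band the range of the background percentile over the arrays. For Wdr83os, Sec31a and Srp72 the circle of Pax8 +/- replicate 1 lies among the Wt points, while for Sec11c and Srp9 all orange points lie below the blue ones.

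The signal peptidase has 2 alternative catalytic subunits, Sec11a and Sec11c. Sec11c (Entrez Gene 66286) was at 13.57, 13.35 and 13.69 on the Wt arrays and at 12.85, 13.19 and 12.64 on the Pax8 +/- arrays. All Pax8 +/- arrays, replicate 1 included, were below all Wt arrays, by at least 0.16. The difference was -0.64 (standard error 0.26, adjusted p = 0.745 from limma), a 1.56-fold change with a 95% interval from -1.24 to -0.05. Its unadjusted p rose above 0.05 when any of 4 arrays was left out: the difference was -0.63 without Wt replicate 1, -0.57 without Wt replicate 3, -0.62 without Pax8 +/- replicate 1 and -0.51 without Pax8 +/- replicate 3. The same held with an intensity trend and robust settings, and in the fit blocked on replicate number. Sec11a was at 13.70 to 14.02 in Wt and 13.96 to 14.04 in Pax8 +/- islets, a difference of 0.09 with a 95% interval from -0.45 to 0.63.

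Within each array, Sec11a minus Sec11c was 0.45, 0.34 and 0.31 in Wt and 1.13, 0.77 and 1.40 in Pax8 +/- islets. The 2 groups of this within-array difference did not overlap. The shift of 0.73 had p = 0.1 in an exact 2-sided permutation test, the smallest that 3 arrays against 3 allow, and 0.6 after adjustment over the 6 pairs of paralogs compared. Of the accessory subunits, Spcs3, which holds the catalytic subunit in place, was at 11.36, 10.97 and 12.26 in Wt and 12.01, 12.58 and 11.99 in Pax8 +/- islets, and the groups differed by 0.66 (standard error 0.37). Spcs1 and Spcs2 had differences of 0.26 and 0.14 with overlapping groups.

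All 12 COPII genes had a higher mean in Pax8 +/- islets, with a median difference of 0.25 and a range of 0.03 to 1.35. Over all probe sets, 10936 of 22206 had a higher mean. Sar1b, the lowest of the 12, changed sign with quantile normalization, and 7 of the 12 were above background on all arrays. Of the 12 genes, 2 had an unadjusted p of at most 0.05 and neither reached a 2.5-fold change. Sec24 proteins form the inner coat and select cargo, and the COPII genes with the smallest p were the closely related Sec24a and Sec24b. Sec24b (Entrez Gene 99683) was at 7.81, 7.82 and 8.15 on the Wt arrays and at 8.16, 9.06 and 9.22 on the Pax8 +/- arrays. The groups were separate by 0.01 only, between Wt replicate 3 and Pax8 +/- replicate 1. They overlapped once each array was scaled to 1 median. The difference was 0.89 (standard error 0.33, adjusted p = 0.745 from limma), and Wt replicates 1 and 2 were below background.

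Sec24a (Entrez Gene 77371) was at 6.27, 5.94 and 6.66 in Wt and at 6.49, 8.04 and 7.38 in Pax8 +/- islets. Only Pax8 +/- replicate 2 was above background, and Pax8 +/- replicate 1 lay within the Wt range. The difference of 1.01 (standard error 0.41, adjusted p = 0.745 from limma) is therefore not exact. For both genes the unadjusted p rose above 0.05 when Wt replicate 1 or 2 or Pax8 +/- replicate 2 or 3 was left out, over differences of 0.68 to 0.83 for Sec24b and 0.64 to 1.00 for Sec24a. Both also missed it without moderation of the variance. Sec24c and Sec24d, the other paralogs, had differences of 0.32 and 0.25 with overlapping groups.

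Sec31a, the scaffold of the outer coat, had the largest difference of the COPII genes. It was at 11.95, 10.75 and 12.50 on the Wt arrays and at 11.74, 13.73 and 13.79 on the Pax8 +/- arrays, above background on all. Pax8 +/- replicates 2 and 3 were above every Wt array by over 1 log2 unit, while replicate 1 was at the Wt mean. The difference of 1.35 (standard error 0.63), or 2.55-fold, passed the fold change of the study but not its threshold on p. The fold change fell below the threshold with quantile normalization (1.29) and without Wt replicate 2 (0.86), Pax8 +/- replicate 2 (1.03) or Pax8 +/- replicate 3 (1.00). Both thresholds were passed with array weights (1.59), with the replicate number as block (1.35) and without Wt replicate 3 (1.74) or Pax8 +/- replicate 1 (2.02). Its partner in the outer coat, Sec13, was at 8.56 to 9.62 in Wt and 8.91 to 9.26 in Pax8 +/- islets, a difference of 0.11.

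Of the remaining COPII genes, none passed the test. Sec23a and Sec23b, whose products stimulate SAR1 to hydrolyse GTP, had differences of 0.04 and 0.26. Those of Sar1a and Sar1b, the GTPases that start the coat, were 0.04 and 0.03. Sar1b was at 12.75, 12.60 and 13.22 in Wt and at 12.66, 13.13 and 12.88 in Pax8 +/- islets, and its 95% interval ran from -0.60 to 0.66. Sec16a and Sec16b, which organise the exit sites of the ER, were below background on all arrays, with differences of 0.15 and 1.19. The within-array differences of 5 of the 6 paralog pairs, all but Sec11a and Sec11c, overlapped between the groups, with shifts from -1.04 for Sec16a minus Sec16b to 0.13 for Sec24a minus Sec24b (exact p of 0.2 to 0.9).

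Of the 7 subunits of the COPI coat, all above background on every array, 4 had a higher mean and 3 a lower one, with a median of 0.44. None passed the test. Copz1, the zeta subunit, had the largest difference, at 12.10, 11.63 and 12.84 in Wt and at 12.52, 13.48 and 13.02 in Pax8 +/- islets. Pax8 +/- replicate 1 lay below Wt replicate 3, and the difference was 0.82 (standard error 0.38). Copa, the alpha subunit, was at 13.11, 13.00 and 13.38 in Wt and at 13.39, 13.76 and 13.66 in Pax8 +/- islets, higher on every Pax8 +/- array though by 0.01 at the nearest. That separation was lost once each array was scaled to 1 median. Its difference was 0.44 (standard error 0.25).

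The other COPI subunits went both ways. Copb2 and Copg1 had differences of 0.56 and 0.66, and Copb1 and Cope of -0.19 and -0.14. Arcn1, the delta subunit, was the lowest of the 7, at 13.64, 13.25 and 13.63 in Wt and at 13.70, 13.02 and 12.67 in Pax8 +/- islets. Pax8 +/- replicate 1 was above all Wt arrays and the other 2 below them, and the difference was -0.37 (standard error 0.32). Subunits of 1 stable complex thus had differences between -0.37 and 0.82.

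The p24 proteins Tmed2 and Tmed10 cycle between ER and Golgi in both kinds of vesicle and carry cargo with lipid anchors. Tmed10 was at 13.86, 13.59 and 14.51 in Wt and at 14.16, 15.19 and 14.62 in Pax8 +/- islets, and the groups differed by 0.67 (standard error 0.36). Pax8 +/- replicate 1 lay below Wt replicate 3. Tmed2, with which it forms a complex, was at 15.37, 15.14 and 15.36 in Wt and at 15.27, 15.27 and 15.70 in Pax8 +/- islets, a difference of 0.12 with a 95% interval from -0.46 to 0.69.

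Leaving out 1 array changed the count of members that passed. Without Pax8 +/- replicate 1, 4 members were higher at the thresholds of the study (Wdr83os, Sec31a, Sec24a and Sec16b) and 0 lower, where 3.33% and 2.69% of all probe sets passed. At an unadjusted p of at most 0.05, 8 members were then higher (Srp72, Sec24b, Copz1 and Tmed10 in addition), against 7.99% of all probe sets, and 0 lower, against 7.35%. Sec16b was below background on every array, and Sec24a was above it only on Pax8 +/- replicate 2. Both remaining Pax8 +/- arrays were above every Wt array for 11 members (26.8%) and below for 4 (9.76%), against 15.9% and 16.1% of all probe sets. Of the 4812 probe sets above background on all arrays, 1059 were above every Wt array on both and 1172 below. These are larger shares than over all probe sets. Srp72 then had a difference of 1.29 (adjusted p = 0.0985 from limma) and Sec31a of 2.02 (adjusted p = 0.0988). The lowest differences with 1 array left out were 0.49 for Srp72, without Pax8 +/- replicate 3, and 0.86 for Sec31a, without Wt replicate 2. Without Wt replicate 3, 3 members were higher at the thresholds (2.49% of all probe sets) and 10 at an unadjusted p of at most 0.05 (6.26%). Then 19 members were higher on every Pax8 +/- array than on both remaining Wt arrays (14.0%). Without any 1 of the other 4 arrays, 0 members were higher by either rule.

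Related genes of the pathway that are not among the 41 were read from 4 lists. Of 88 listed, 85 were measured, with a median difference of 0.21 and 55 higher in mean. At an unadjusted p of at most 0.05, 2 were higher (2.35%) and 3 lower (3.53%), shares near the 3.14% and 2.77% of all probe sets. The oligosaccharyltransferase, the enzyme beside the translocon that adds sugar chains to new proteins, had 10 of 11 subunits higher in mean and a median of 0.72, but none passed the test. Krtcap2 had its largest difference, at 1.24, with 14.83, 14.85 and 15.54 in Wt and 14.65, 17.36 and 16.92 in Pax8 +/- islets. Pax8 +/- replicate 1 was the lowest of the 6 arrays for this gene.

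These 5 genes are given for their values only. The higher ones were Emc1, a subunit of the ER membrane complex that inserts membrane proteins, at 0.78, and Tmed4, another p24 protein, at 1.40. Emc1 was higher on every Pax8 +/- array (8.76 to 9.50) than on any Wt array (8.05 to 8.67). The lower ones were Cnih4, a cargo receptor of COPII, at -0.97, Bnip1, a SNARE of the ER, at -0.83, and Tmed11, also of the p24 family, at -2.01. Cnih4 and Bnip1 had separate groups, and Tmed11 was below background on Pax8 +/- replicates 2 and 3. All of these had an adjusted p = 0.745 from limma. Tmed11 at -2.01 and Tmed4 at 1.40 were the only related genes past the thresholds of the study.

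**Figure D5:**
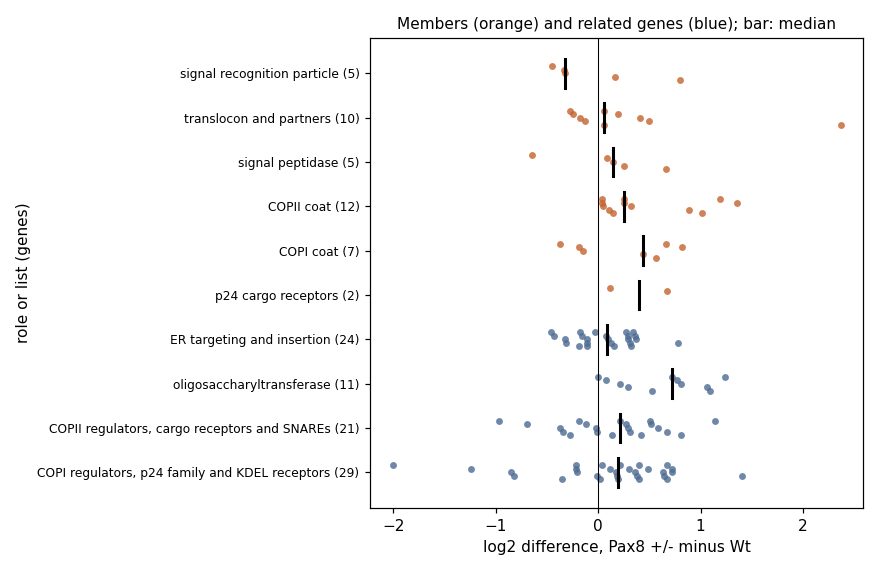
Log2 difference (Pax8 +/- minus Wt, x axis) of the members by role (orange) and of related genes by list (blue); each point is a gene, the black bar the median, and the number of genes is in brackets. The COPII genes all lie above 0, the oligosaccharyltransferase has the highest median at 0.72, and the widest spread is among the COPI regulators, from -2.01 to 1.40.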

How the data were processed

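The authors processed the arrays with version 4.0 of the GeneChip Command Console of Affymetrix and, per the submitters' processing notes, with RMA and the Transcriptome Analysis Console. The deposited table holds 1 log2 value per probe set and array. No version of RMA or of the Transcriptome Analysis Console, and no genome build, was found in the labels or methods. Of 28846 rows, 5222 negative control and 1418 other control probe sets were left out and 22206 gene probe sets were tested, with no filter on level. Symbols came from the platform annotation (19572 probe sets with 1 symbol), updated through RefSeq. Groups and replicate numbers came from the labels. Groups were compared by a linear model per probe set with moderated variance (lmFit and eBayes of limma 3.58.1, run in R 4.3.3; 2-sided, no covariate, 4.32 prior degrees of freedom), with Benjamini-Hochberg adjustment over all probe sets. Pairs of paralogs were compared with an exact permutation test. The number of arrays limits the precision. The code was tested on simulated data. Members and lists were chosen with earlier results of these data known. Values on every array are given for members at an unadjusted p of at most 0.05, those with separate groups and the highest and lowest of each role. Related genes were named at an unadjusted p of at most 0.05, and Wdr83 and Ccdc47 always. Further values, among them those of Sec61a1, and Krtcap2 were added after they were seen. The promoter motifs were also chosen after the expression values were seen. Alternatives were other variance models, array weights, other scalings, a filter on dim probe sets, the mean of all probe sets of a gene, a Tukey biweight, the replicate number as a block and leaving out each array. The mean of all probe sets could change no member, since each had 1. The Tukey biweight replaced the difference only and kept the p of the limma fit on means.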

Additional observations from a re-analysis of the deposited data

How the results depend on the processing

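Counts given as higher and lower follow that order. Members past the thresholds of the study (1 and 0) were 0 and 0 without moderation of the variance, 3 and 0 with array weights, and 0 to 4 higher when each array was left out. Members at an unadjusted p of at most 0.05 (3 and 1) were 0 and 1 without moderation, 9 and 1 with array weights, 3 and 0 with an intensity trend and robust settings, and 0 to 10 and 0 to 1 over the left-out arrays. Of all probe sets, 7.58% were higher with array weights and 1.13% to 7.99% over the left-out arrays, against 3.14%. Members with separate groups (2 and 2) were 0 and 2 with each array scaled to 1 median and 2 to 19 and 2 to 5 over the left-out arrays. The shares of all probe sets were then 7.43% to 15.9% and 8.08% to 16.1%, against 4.52% and 5.14%, with 14.0% without Wt replicate 3, where the 19 arose. Over all probe sets the thresholds of the study (144 and 78) gave 19 and 16 without moderation, 494 and 306 with array weights, 232 and 119 with a Tukey biweight, and 24 to 740 and 17 to 597 over the left-out arrays. The median difference of the members (0.15, with 30 higher in mean) ran from 0.043 without Wt replicate 2 (23 higher) to 0.40 without Wt replicate 3 (33 higher), and was 0.096 with quantile normalization (26 higher).

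Deviations from the group means of arrays with the same replicate number correlated at 0.00, -0.42 and 0.14 over probe sets. Between arrays with different numbers these correlations ran from -0.45 to 0.47. They cannot decide whether arrays were paired, because the deviations within a group are not independent. With the number as a block, 2 members were higher and 0 lower at the thresholds, beside 203 and 145 of 22206 probe sets. At an unadjusted p of at most 0.05 these were 4 and 0 members, beside 700 (3.15%) and 544 of all probe sets. Within the numbers, 8 members were higher and 3 lower in all pairs, beside 13.0% and 12.3% of all probe sets.

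Of the differences that were not called, Sar1b changed sign with quantile normalization (-0.016) and over the left-out arrays (-0.094 to 0.21), and Tmed2 with a Tukey biweight (-0.10) and over the left-out arrays (-0.025 to 0.19). Among paralog pairs, the shift of Sar1a minus Sar1b changed sign with quantile normalization (-0.039). Over the left-out arrays it ran from -0.12 to 0.22, that of Sec23a minus Sec23b from -0.46 to 0.069, of Sec24a minus Sec24b from -0.12 to 0.29, and of Sec24c minus Sec24d from -0.43 to 0.41. The causes were not tested.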
